A study of Mus musculus with 8 samples.

Results

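The genes described here are 32 genes that macrophages use, read in cultures of mouse embryonic fibroblasts. They were listed by gene symbol, with earlier results of these data known. A listed gene was kept where a probe carried its symbol in the platform annotation and was above background on at least 2 arrays. Of the 32 genes, 29 had a probe, and 20 of these were kept, out of 9340 genes kept in all. The fibroblasts were of the C57BL/6J background, either wild type or staggerer, and were grown in DMEM with fetal bovine serum. Staggerer is a mouse mutation in Rora, the gene of the nuclear receptor ROR alpha. Cells of each genotype were untreated or had been given doxorubicin, a drug that breaks DNA, for 12 h. Each of the 4 groups had 2 one-colour Illumina bead arrays, so the study holds 8 arrays. Neither the doxorubicin dose nor the number of embryos or isolates per genotype is given in the sources used here, so the mutation and a difference between isolates cannot be told apart. Whether both arrays of a group stem from separate cultures is not stated either, and the p-values then cover the spread between arrays alone, which may be technical.

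Macrophages are tissue phagocytes that arise from the yolk sac, the fetal liver or blood monocytes, and they live on signals through the receptor for colony stimulating factor 1. They recognise particles with scavenger, lectin and Fc receptors, mark debris with complement C1q and break it down in lysosomes. Embryos hold macrophages in most tissues, and a primary fibroblast culture made from minced embryos can carry some of them along. In a bulk RNA sample, fewer cells of a type and less RNA per cell cannot be told apart.

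Many macrophage genes are bound by PU.1, an ETS factor encoded by Spi1, whose core site is read as GAGGAAGT on one strand and ACTTCCTC on the other. Both forms were searched in RefSeq promoters of assembly GRCm38.p6, each from 250 bases before to 50 bases after a start site. The motif was found in 1052 of 32851 promoters, which is 3.2%. Of the 20 genes kept, 15 had a promoter in the table, 18 promoters in all, and 4 genes held the motif. These windows are shown because they are the sequences of the set that carry it. They are written 5′ to 3′ on the strand of the gene, with the motif in capitals, for C1qc at chr4:136893086-136893125 (minus strand), Cd53 at chr3:106790120-106790159 (minus strand), Ctss at chr3:95526768-95526807 (plus strand) and Vav1 at chr17:57279073-57279112 (plus strand).
C1qc: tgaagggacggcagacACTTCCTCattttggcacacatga
Cd53: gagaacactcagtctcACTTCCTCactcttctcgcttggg
Ctss: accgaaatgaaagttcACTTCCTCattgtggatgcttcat
Vav1: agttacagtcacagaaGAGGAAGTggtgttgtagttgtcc
With the first transcribed base counted as 1 and the base before it as -1, the motif starts at -195 in C1qc, 7 in Cd53, -2 in Ctss and -11 in Vav1. A match is a description of these letters only. Of the 4 genes, C1qc and Vav1 were lower in untreated staggerer cultures, as given below, while Cd53 and Ctss were not called there.

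All signals below are log2 values after background correction and quantile normalization, and a probe counted as above background where its signal exceeded all but 1% of the control rows. The arrays of a group correlated at 0.9829 to 0.9946. Between 10942 and 11572 probes were above background on the other 6 arrays, but 9246 and 9576 on the treated staggerer arrays. The lowest normalized signal above background was 6.69 and 6.85 on those arrays and 5.92 to 6.13 on the rest, so a dim gene was harder to detect there. The probe of Rora read 7.72 and 8.08 in untreated wild type, 7.99 and 7.92 in treated wild type, 6.58 and 6.57 in untreated staggerer and 6.56 and 6.24 in treated staggerer. It differed by -1.33 ± 0.17 between the untreated genotypes (log2 difference ± SE, 2 arrays a group, limma adjusted p = 0.00223), and its place relative to the mutated part of the gene was not tested. Of 15 fibroblast markers, 13 were kept, among them the collagen genes Col1a1 and Col1a2 and the filament protein Vim.

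Not every macrophage gene was seen. Csf1r, the receptor of colony stimulating factor 1, Cd68, a lysosomal glycoprotein, and Mpeg1, a pore protein of phagosomes, had no probe in the annotation used and were not analysed here. Ptprc, the pan-leukocyte phosphatase CD45, was above background on 0 of 8 arrays. So were the integrin chains Itgam and Itgb2, the scavenger receptor Cd36, the NADPH oxidase subunit Cybb and Spi1 itself. Fcgr3, an Fc receptor for IgG, Tyrobp, the adaptor DAP12, and Aif1, an actin-binding protein also called IBA1, passed on 1 array each, the second untreated wild type array. The 12 probes of these 9 genes lay between 4.55 and 6.55 on all arrays. The label of the set thus rests on 20 genes that include F4/80 (Adgre1), the mannose receptor (Mrc1), C1q and lysozyme, while CD45, CD11b (Itgam) and PU.1 were not detectable at this signal.

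In untreated cultures most of the macrophage genes kept were lower in staggerer than in wild type. Lysozyme (Lyz2) was 4.18-fold lower, the lysosomal protein Laptm5 7.05-fold lower, the Fc receptor gamma chain Fcer1g 6.01-fold lower, and the complement chains C1qb and C1qc 5.67-fold and 5.28-fold lower. The mannose receptor Mrc1 was above background on all 4 wild type arrays and on 0 of 4 staggerer arrays. At an adjusted p of 0.05, 0 of the 20 genes were higher and 18 were lower. Over all 9340 genes 6.68% were called higher in this comparison and 6.27% lower. The median log2 difference of the 20 genes was -1.69 against -0.01 over all genes, and -1.27 with the 11 genes that neither untreated staggerer array detected placed at their bound. With no background correction it was -0.83. The filter bears on these figures, because 9 of the 20 genes were above background on fewer than 2 staggerer arrays and entered through the wild type arrays where they are bright. The other 11 were above background on at least 2 of the 4 staggerer arrays, and 10 of these were lower. The 18 lower calls were the same in number with each array centred on its median and with no normalization between arrays, while the share of all called genes that were higher went from 51.6% to 34.6% and 11.7%.

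**Figure D1:**
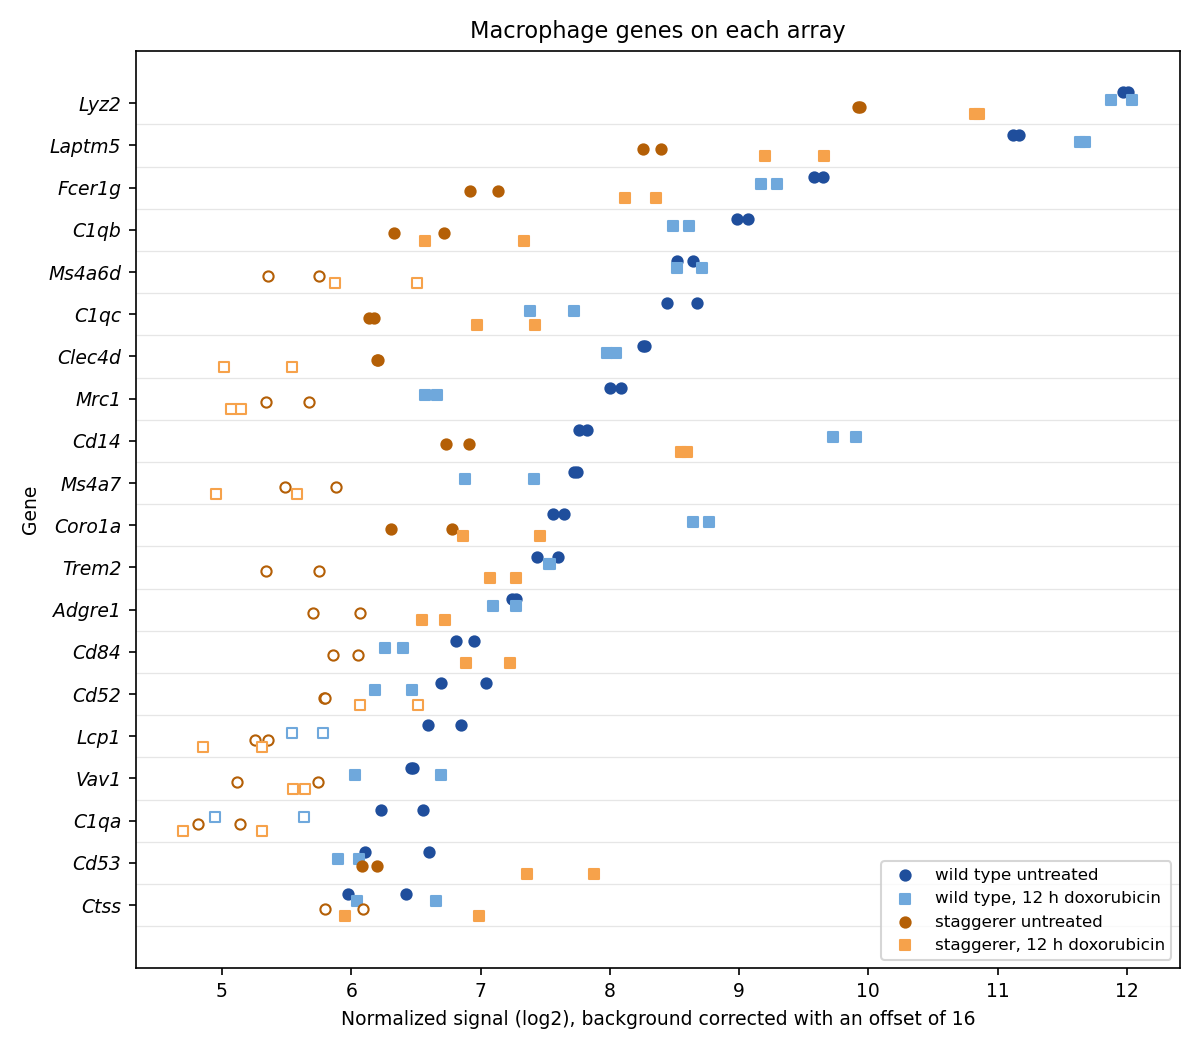
Each row is a gene and the horizontal axis is the normalized log2 signal on each of the 8 arrays, with hollow marks where the probe was above background on neither array of the group. The untreated staggerer arrays lie left of the untreated wild type arrays for Lyz2 (9.92 and 9.94 against 11.97 and 12.01), and for Cd53 the marks overlap (6.08 and 6.20 against 6.10 and 6.60).

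Of the lysosomal genes, Lyz2 and Laptm5 were lower in untreated staggerer and Ctss was not called. Lyz2, which encodes the lysozyme that digests bacterial cell walls, read 12.01 and 11.97 in untreated wild type, 11.88 and 12.04 in treated wild type, 9.92 and 9.94 in untreated staggerer and 10.86 and 10.82 in treated staggerer. All 4 wild type arrays lay above all 4 staggerer arrays, and the treated staggerer arrays lay between. The untreated difference was -2.06 ± 0.12 (limma adjusted p = 7.46e-05). Laptm5, a lysosomal membrane protein of blood cells, read 11.12 and 11.17, then 11.64 and 11.68, in untreated and treated wild type, against 8.26 and 8.40, then 9.20 and 9.66, in staggerer. No wild type array overlapped a staggerer array, and the untreated difference was -2.82 ± 0.16 (limma adjusted p = 8.83e-05). The protease cathepsin S (Ctss), which trims antigens, read 6.42 and 5.98 in untreated wild type, 6.65 and 6.05 in treated wild type, 5.80 and 6.09 in untreated staggerer and 5.95 and 6.99 in treated staggerer. Its groups overlapped, and it was not called in any comparison.

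A second probe of Lyz2, above background on all 8 arrays, read 9.67 and 9.92 in untreated wild type, 9.32 and 9.34 in treated wild type, 7.26 and 7.50 in untreated staggerer and 8.77 and 9.60 in treated staggerer. It too was lower in untreated staggerer, but its treated staggerer arrays lay on both sides of the treated wild type arrays. Lyz1, the near-identical neighbour of Lyz2, differed by -2.12 ± 0.13 between the untreated genotypes (limma adjusted p = 9.65e-05). Whether the probes separate these copies was not tested, as the files give no probe sequences.

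C1q, the recognition unit of the classical complement pathway, is built of A, B and C chains whose genes neighbour each other on chromosome 4. C1qb read 8.98 and 9.07 in untreated wild type, 8.61 and 8.49 in treated wild type, 6.33 and 6.71 in untreated staggerer and 7.34 and 6.57 in treated staggerer. C1qc read 8.68 and 8.44, then 7.38 and 7.72, in wild type, and 6.18 and 6.14, then 7.42 and 6.97, in staggerer. C1qa read 6.23 and 6.55, then 4.95 and 5.64, in wild type, and 4.81 and 5.14, then 5.31 and 4.70, in staggerer, and it was above background only on the untreated wild type arrays. All 3 chains were lower on both untreated staggerer arrays than on both untreated wild type arrays. The differences were -2.50 ± 0.25 for C1qb (limma adjusted p = 0.000805) and -2.40 ± 0.19 for C1qc (3e-04). For C1qa the drop was at least 1.21-fold (0.0184), and this call was lost without any one of the 4 untreated arrays (adjusted p up to 0.119).

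Among the receptors, Mrc1, a lectin that takes up mannose-bearing glycoproteins, read 8.09 and 8.0 in untreated wild type, 6.66 and 6.57 in treated wild type, 5.68 and 5.34 in untreated staggerer and 5.15 and 5.07 in treated staggerer. Clec4d, another C-type lectin, read 8.25 and 8.27, then 7.98 and 8.05, in wild type, and 6.21 and 6.20, then 5.54 and 5.01, in staggerer. For both lectins all wild type arrays lay above all staggerer arrays. The untreated drop was at least 3.80-fold for Mrc1 (limma adjusted p = 7.46e-05), whose staggerer signal is only a bound, and Clec4d differed by -2.06 ± 0.17 (0.000383). Such a bound sets the mean of the bright group against the lowest signal above background on the dim arrays, or the probe's own signal where that is higher. Every "at least" value here holds for the background correction used, and with none the Mrc1 difference was -1.11 on the log2 scale.

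Adgre1, which encodes the surface protein F4/80 used to mark mouse macrophages, read 7.27 and 7.25 in untreated wild type, 7.28 and 7.10 in treated wild type, 5.70 and 6.07 in untreated staggerer and 6.72 and 6.55 in treated staggerer. Its untreated drop was at least 2.20-fold (limma adjusted p = 0.00149). A second Adgre1 probe read 7.90 and 7.87, then 7.76 and 7.51, in wild type, and 5.44 and 5.35, then 6.03 and 5.61, in staggerer, and it was not above background on any staggerer array. The untreated differences of the 2 probes were -1.37 and -2.49, both fitted against staggerer signals not above background. Cd14, a coreceptor for bacterial lipopolysaccharide, read 7.83 and 7.76, then 9.73 and 9.90, in wild type, and 6.73 and 6.91, then 8.60 and 8.55, in staggerer. The groups did not overlap, and the untreated difference was -0.97 ± 0.13 (limma adjusted p = 0.00247).

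Trem2, a lipid-sensing receptor that signals through DAP12, read 7.60 and 7.44 in untreated wild type, 7.54 and 7.53 in treated wild type, 5.75 and 5.34 in untreated staggerer and 7.08 and 7.27 in treated staggerer. Untreated staggerer stood apart as the low group, by at least 2.63-fold (limma adjusted p = 0.000369). Ms4a6d and Ms4a7 encode membrane proteins of a family that spans the membrane several times. Ms4a6d read 8.65 and 8.52, then 8.71 and 8.52, in wild type, and 5.35 and 5.75, then 5.88 and 6.51, in staggerer. Ms4a7 read 7.72 and 7.75, then 6.88 and 7.41, in wild type, and 5.49 and 5.88, then 5.58 and 4.96, in staggerer. Neither was above background on a staggerer array. Their untreated drops were at least 5.52-fold for Ms4a6d (limma adjusted p = 0.000258) and at least 3.06-fold for Ms4a7 (0.00228). A second Ms4a6d probe, also above background only in wild type, differed by -1.43 where the first differed by -3.03, again against staggerer signals not above background.

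The leukocyte surface proteins Cd84, Cd52 and Cd53 differed from one another. Cd84, an adhesion receptor of the SLAM family, read 6.81 and 6.95 in untreated wild type, 6.26 and 6.40 in treated wild type, 5.86 and 6.05 in untreated staggerer and 6.89 and 7.22 in treated staggerer. Cd52, a small glycosyl-anchored peptide, read 7.04 and 6.70, then 6.18 and 6.47, in wild type, and 5.79 and 5.80, then 6.07 and 6.52, in staggerer. Both were lower in untreated staggerer, by at least 1.69-fold for Cd84 (limma adjusted p = 0.0082) and at least 1.68-fold for Cd52 (0.0117). The Cd84 call was lost without the second wild type or the first staggerer array of the untreated groups, and that of Cd52 without the first wild type or either staggerer array, with adjusted p up to 0.0683 and 0.0915. Cd53, a tetraspanin of leukocytes, read 6.60 and 6.10, then 6.06 and 5.89, in wild type, and 6.20 and 6.08, then 7.36 and 7.87, in staggerer. The untreated groups overlapped, and the Cd53 difference of -0.21 ± 0.22 was not called (limma adjusted p = 0.598).

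The intracellular genes of the set followed the receptors in direction. Fcer1g, the signalling chain shared by activating Fc receptors, read 9.65 and 9.58 in untreated wild type, 9.29 and 9.17 in treated wild type, 7.13 and 6.92 in untreated staggerer and 8.36 and 8.12 in treated staggerer. No group overlapped another, and the untreated difference was -2.59 ± 0.14 (limma adjusted p = 6.28e-05). Vav1, a signalling protein of blood cells, read 6.48 and 6.46, then 6.03 and 6.70, in wild type, and 5.12 and 5.74, then 5.64 and 5.55, in staggerer. Coro1a, an actin-binding protein of leukocytes, read 7.65 and 7.56, then 8.77 and 8.65, in wild type, and 6.78 and 6.31, then 7.46 and 6.87, in staggerer. Lcp1, the actin bundler L-plastin, read 6.59 and 6.85, then 5.78 and 5.54, in wild type, and 5.36 and 5.25, then 5.31 and 4.86, in staggerer. In each of these the untreated wild type arrays lay above the untreated staggerer arrays. Coro1a differed by -1.06 ± 0.23 (limma adjusted p = 0.0227), Lcp1 fell at least 1.51-fold (0.00254), and Vav1 at least 1.27-fold (0.0402). The Coro1a call was lost without either untreated wild type array or the second untreated staggerer array, and that of Vav1 without either untreated wild type array or the first untreated staggerer array, with adjusted p up to 0.141 and 0.201.

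**Figure D2:**
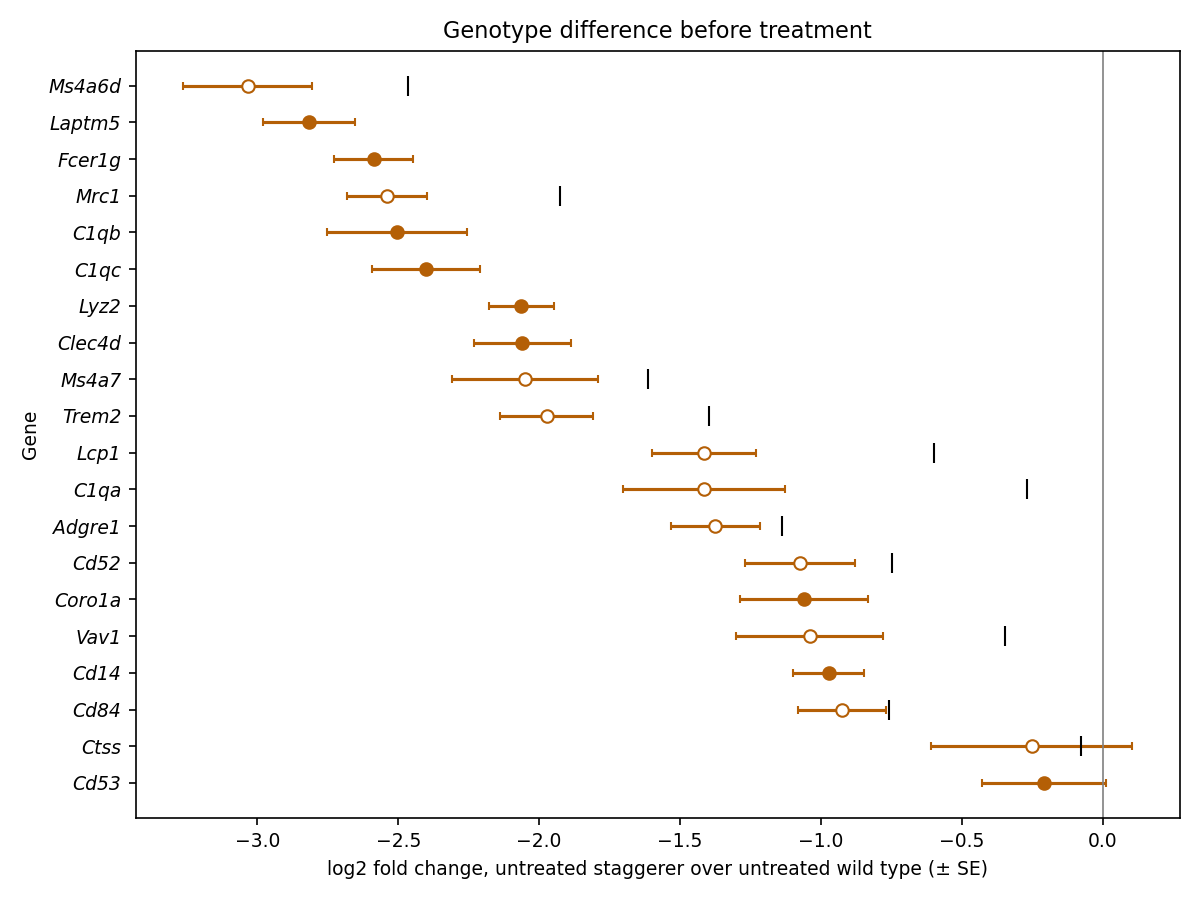
The horizontal axis is the log2 difference, untreated staggerer minus untreated wild type, with its standard error. Hollow points are genes above background on neither untreated staggerer array, and the black tick is the smallest drop their detection limit allows. Of the 20 points, 18 passed the test, from -3.03 (Ms4a6d) to -0.93 (Cd84), and Cd53 and Ctss did not.

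After 12 h of doxorubicin in wild type cultures, some macrophage genes rose and others fell. Cd14 rose 4.05-fold and Coro1a 2.15-fold, while Mrc1 fell 2.69-fold and C1qc 2.01-fold, and Lyz2 changed by 1.02-fold without passing the test. Of the 20 genes, 3 rose, 7 fell and 10 were not called, against 56.9% of all genes called, 26.4% higher and 30.5% lower, so the share called among these genes was no larger than the background. The median log2 change was -0.31 against -0.09 over all genes. The filter bears on the falls, because Lcp1 and C1qa were above background on the untreated wild type arrays alone. They entered through the group where they are bright. Of all genes called, 46.4% were higher, 36.9% after centring each array on its median and 30.5% with no normalization between arrays.

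The genes that rose in wild type were Cd14 by 2.02 ± 0.13 (limma adjusted p = 1.79e-05), Coro1a by 1.10 ± 0.23 (0.00445) and Laptm5 by 0.51 ± 0.16 (0.0298). A second Coro1a probe rose by less on the log2 scale, from 7.31 and 7.32 to 8.04 and 8.0. Falls were seen for Mrc1 with -1.43 ± 0.14 (limma adjusted p = 0.000138), C1qc with -1.01 ± 0.19 (0.00298), Lcp1 with a drop of at least 1.69-fold (0.00195) and C1qa with a drop of at least 1.35-fold (0.0132). Smaller falls were -0.55 ± 0.16 for Cd84 (limma adjusted p = 0.0183), -0.55 ± 0.20 for Cd52 (0.0457) and -0.38 ± 0.14 for Fcer1g (0.0473). Fewer of the genes were called without the second untreated wild type array or the first treated one, as was the case over all genes. C1qa, Cd52, Cd84, Fcer1g and Laptm5 lost their call under at least 1 alternative, with adjusted p up to 0.085, 0.239, 0.0995, 0.19 and 0.407. Cd14, Coro1a, Mrc1, C1qc and Lcp1 stayed called under all alternatives that could test them. The fibroblast markers moved in the same comparison, with 0 of 13 higher and 9 lower, and their part in these changes was not tested.

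In staggerer cultures the same treatment went with higher signals of many of the genes that were dim before it. Cd14 rose 3.37-fold, Fcer1g 2.31-fold, Laptm5 2.15-fold, C1qc 2.05-fold and Lyz2 1.88-fold, and Trem2 rose at least 2.07-fold. Clec4d, at 6.21 and 6.20 before treatment and not above background after it, was called lower (limma adjusted p = 0.00228), but its signal before lay under the detection limit of the treated arrays, so no fold is given. Of the 20 genes, 11 were higher, 2 lower and 7 not called, against 65.0% of all genes called, 31.8% higher and 33.3% lower. The share called among the 20, in either direction, was 65%, no larger than the background. The median log2 change was 0.63, or 0.47 with undetected genes at their bound, against 0.02 over all genes. This comparison shares its untreated staggerer arrays with the untreated genotype comparison, so the low untreated signals enter both.

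The rises in staggerer were 1.75 ± 0.13 for Cd14 (limma adjusted p = 3.02e-05), 1.21 ± 0.14 for Fcer1g (0.000225), 1.10 ± 0.16 for Laptm5 (0.00075), 1.04 ± 0.19 for C1qc (0.00211), 0.91 ± 0.12 for Lyz2 (0.00035) and 0.62 ± 0.23 for Coro1a (0.0437). Cd53 rose by 1.47 ± 0.22 (limma adjusted p = 0.000784). A further 3 genes that no untreated staggerer array detected rose to signals above background, by at least 2.07-fold for Trem2 (0.000123), 1.91-fold for Cd84 (0.000601) and 1.43-fold for Adgre1 (0.00402), the last on 1 of 2 arrays. Ms4a6d (0.64, limma adjusted p = 0.0392) and Mrc1 (-0.40, adjusted p = 0.0399) passed the test although neither was above background on a staggerer array, so these are values of background and are not read as expression.

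These rises stand beside a change in the arrays themselves. The treated staggerer arrays were dimmer before normalization, with a median corrected log2 signal of 7.55 and 7.64 against 8.61 to 9.11 on the other 6, and the part of this in the rises was not tested. With each array centred on its median in place of quantile normalization, 5 of the 20 genes were higher and 1 lower, the median of all genes was -0.40 and that of the macrophage genes 0.24. With no normalization between arrays, 3 were higher and 1 lower, and the medians were -0.56 and 0.08. Of all genes called in staggerer, 48.8% were higher after quantile normalization, 27.4% after centring and 16.7% with none. Cd14, Trem2, Cd53 and Clec4d kept their calls under all alternatives that tested them. Fcer1g, Laptm5 and C1qc kept a positive value but lost their call under centring and under no normalization, with adjusted p up to 0.315, 0.564 and 0.289, and Lyz2 and Cd84 under no normalization, with 0.35 and 0.0712. Adgre1 lost its call under 5 of 18 alternatives, which were those 2, a larger offset in the background correction, no such correction and the authors' table (adjusted p up to 0.405). Coro1a turned to -0.02 under centring and -0.18 with none, and lost its call under 11 of 19 alternatives. Among these were 0.17 with the mean of its probes (adjusted p = 0.238) and the omission of any one wild type array, the second untreated staggerer array or the first treated one (up to 0.246). Its other probes were above background on no staggerer array. Some markers of other cells were also brighter. The 3 endothelial markers kept summed to 775.7 and 925.6 before and 1864 and 1927 after treatment. Of these, Egfl7 went from 9.27 and 9.65 to 10.68 and 10.73 and Esam rose, while Emcn was above background on no staggerer array. The 2 of T and NK cells summed to 120.5 and 132.9 before and 247.2 and 329.8 after. Klrd1 was above background on no staggerer array, so that rise is read from Cd3e alone. Of the 13 fibroblast markers 5 were higher and 3 lower. Their part in the rises was not tested.

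**Figure D3:**
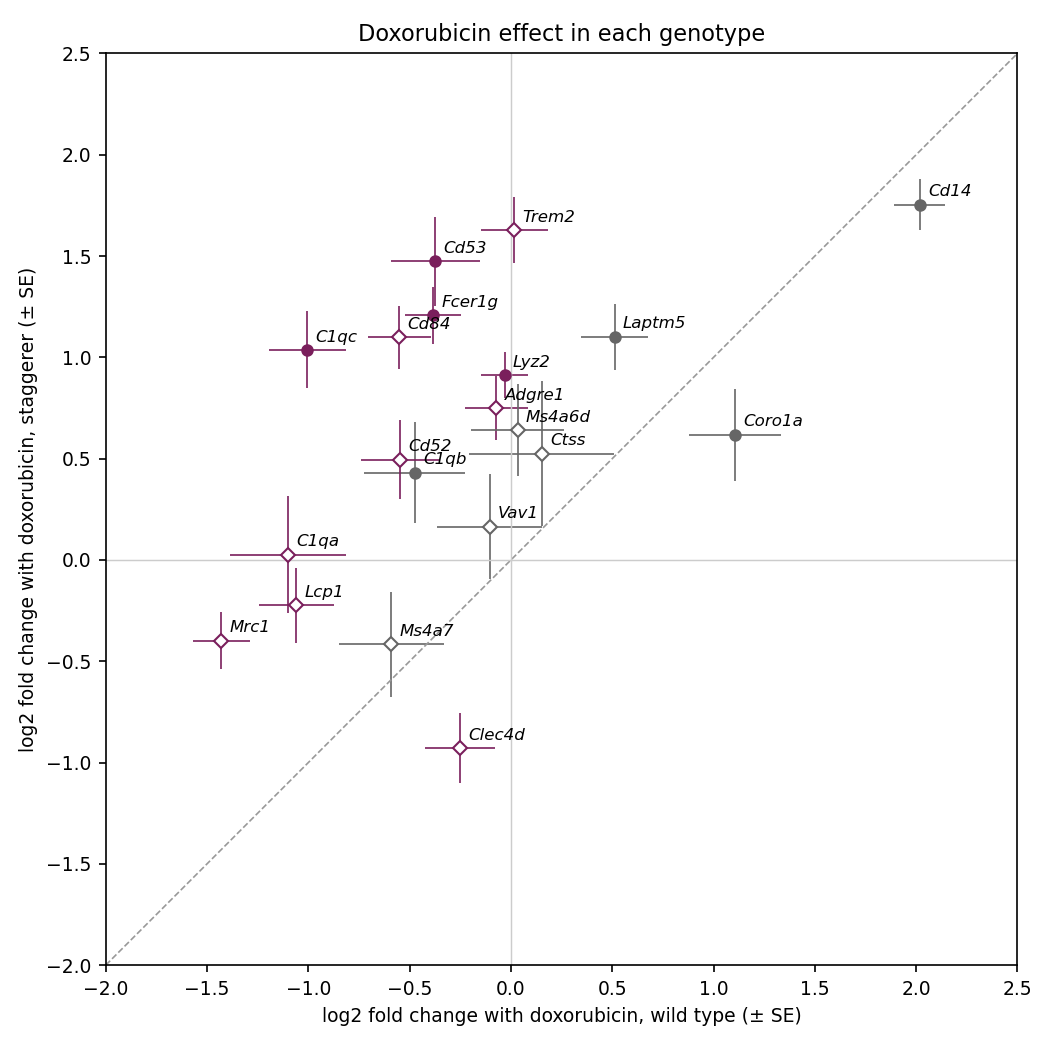
Each point is 1 gene, with the log2 fold change after doxorubicin in wild type on the horizontal axis and in staggerer on the vertical axis, both with standard errors. Purple points passed the test of the difference between the genotypes, hollow points are genes that neither array of at least 1 group detected, and the dashed line marks equal changes. Cd14 lies near the line at 2.02 and 1.75, and C1qc lies far above it at -1.01 and 1.04.

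The change after doxorubicin differed between the genotypes for 12 of the 20 genes, more positive in staggerer for 11 and more negative for Clec4d. Over all genes 59.2% were called in this test, 26.6% with the staggerer change more positive and 32.6% more negative. Among the 20 the share called in either direction was 60%, near that background. Over all genes the share of calls that were more positive went from 45% to 32.2% with centring and 28.5% with none. C1qc, above background on all 8 arrays, differed by 2.04 ± 0.27 (limma adjusted p = 0.000655), having fallen in wild type and risen in staggerer. Fcer1g, also above background on all 8, differed by 1.59 ± 0.20 (limma adjusted p = 0.000517). Cd53, which 1 of 2 arrays detected in treated wild type and in untreated staggerer, differed by 1.85 ± 0.31 (limma adjusted p = 0.00188). Cd84 and Trem2 were called too (limma adjusted p = 0.000687 and 0.000941), but neither was above background in untreated staggerer, so the sizes of these differences are not read. Cd14, which rose in both genotypes, differed by -0.27 with a standard error of 0.18 and was not called (limma adjusted p = 0.231), which does not show that the rises were equal. C1qc, Cd53, Cd84, Trem2, Fcer1g and Mrc1 kept this call under all alternatives that tested them. The second Lyz2 probe gave a difference of 2.27 where the first gave 0.94.

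After doxorubicin most of the macrophage genes kept were again lower in staggerer than in wild type. Laptm5 was 4.68-fold lower, Coro1a 2.92-fold, Cd14 2.36-fold, Lyz2 2.17-fold and Fcer1g 1.99-fold. The second Lyz2 probe, above background on all 8 arrays, differed by only -0.15 on the log2 scale, against -1.12 for the first. Of the 20 genes, 2 were higher, 13 lower and 5 not called, against 72.6% of all genes called, 32.5% higher and 40.0% lower. The share called among the 20, in either direction, was 75%, near the background. The median log2 difference was -0.88, or -0.37 with undetected genes at their bound, against -0.14 over all genes. Of all genes called, 44.9% were higher, 30.3% after centring and 20.1% with no normalization between arrays. Those not called were Trem2 (-0.36 ± 0.16, limma adjusted p = 0.0812), C1qc (-0.36 ± 0.19, 0.124), Cd52, C1qa and Ctss. Cd53 was 3.11-fold higher in treated staggerer (limma adjusted p = 0.000329), though on the treated wild type side only 1 of 2 arrays detected it. Cd84 was 1.65-fold higher (limma adjusted p = 0.00369) but turned to -0.19 on the log2 scale with no normalization between arrays. These counts depend on the filter too, because 9 of the 20 genes were above background on fewer than 2 staggerer arrays. They entered through the wild type arrays, and all but Cd52, C1qa and Ctss were called lower. Of the other 11, Cd53 and Cd84 were higher, Trem2 and C1qc were not called, and the rest were lower.

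The remaining lower genes after treatment were Clec4d with at least 2.36-fold (limma adjusted p = 1.29e-05), Ms4a6d with at least 3.59-fold (5.61e-05), Ms4a7 with at least 1.29-fold (0.000375), C1qb with -1.60 ± 0.25 (0.000712) and Adgre1 with -0.55 ± 0.16 (0.0138). The Adgre1 call was lost without the first treated wild type array (adjusted p = 0.0829) or the second treated staggerer array (0.053). For C1qb and Adgre1 only 1 of the 2 treated staggerer arrays was above background. Mrc1 and Vav1 were called lower, with limma adjusted p of 5.67e-05 and 0.0288, but their wild type signal was at or under the higher detection limit of the treated staggerer arrays, so no fold is given. Lcp1 also passed the test (limma adjusted p = 0.0222) without being above background in either treated group. Vav1 lost its call under 4 of 18 alternatives, without the second treated wild type array or either treated staggerer array and with no background correction (adjusted p up to 0.184). Lcp1 lost its call under 7, including without the first treated wild type or the second treated staggerer array (up to 0.124). The second Adgre1 probe differed by -1.81 after treatment, against -0.55 for the first, and the second Ms4a6d probe by -1.01 against -2.43, where neither second probe was above background on a treated staggerer array.

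The summed linear signal of the 20 genes set each group apart from the others, with no overlap between arrays. It was 10500 and 10730 in untreated wild type, 11110 and 11720 in treated wild type, 2446 and 2534 in untreated staggerer and 4639 and 4751 in treated staggerer. The fibroblast markers summed to 121800 and 124500 in untreated wild type, 121600 and 126500 in untreated staggerer, 95170 and 99210 in treated wild type and 122100 and 130300 in treated staggerer. Untreated cultures thus overlapped in summed fibroblast signal and did not overlap in summed macrophage signal. Such linear sums follow their brightest probes, and some single fibroblast markers did differ, as given below. The lysosomal genes made up 6377 and 6441 of the sum in untreated wild type. The receptors were ordered likewise before treatment, at 1988 and 2106 in wild type against 610.2 and 644.4 in staggerer. With treatment in wild type the parts of the sum moved apart. C1q fell from 979.5 and 990.6 to 589.8 and 620.9 and the signalling adaptors from 853.2 and 893.9 to 681.2 and 691.6. The sums of the receptors, the actin-binding genes and the lysosomal genes rose there, but not through all their genes. Of the 10 receptors tested, only Cd14 was called higher and 3 were lower, with a median log2 change of -0.31. Coro1a rose while Lcp1 fell, and of the lysosomal genes only Laptm5 was called higher.

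**Figure D4:**
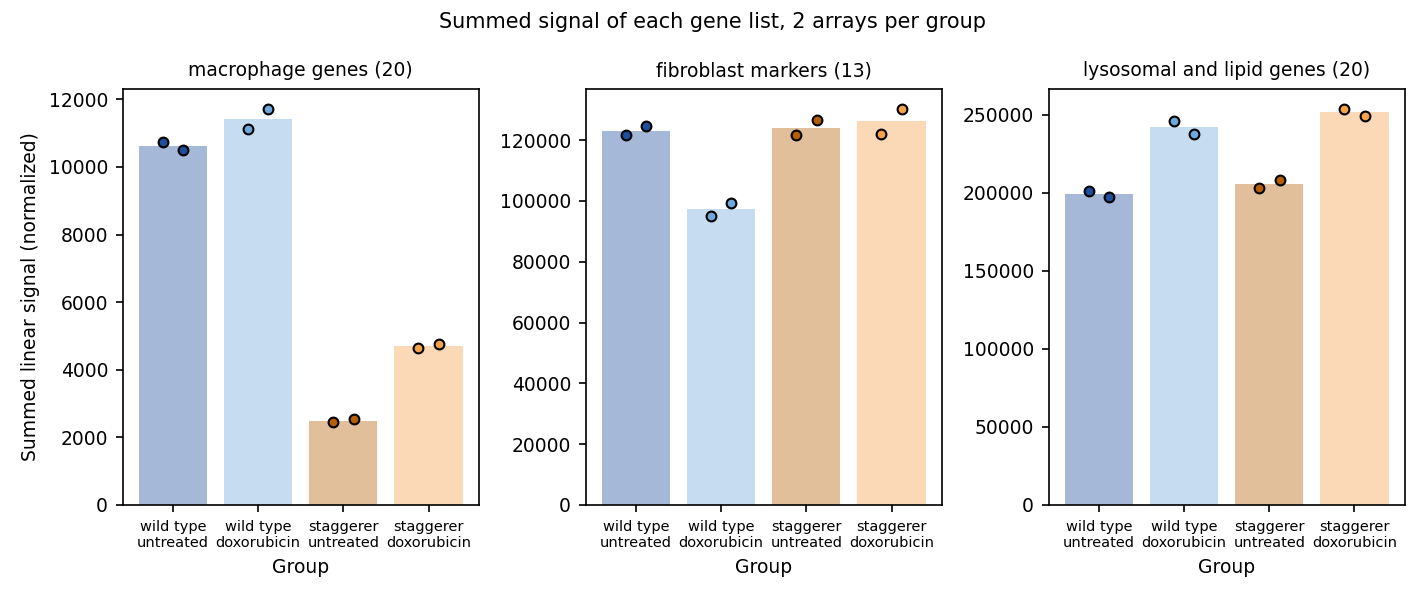
Each panel sums the linear normalized signal over the macrophage genes, the fibroblast markers or lysosomal and lipid genes that fibroblasts also express. Points are single arrays and bars are the mean of the 2 arrays. The macrophage sum is 2446 to 2534 in untreated staggerer against 10500 to 10730 in untreated wild type, while the fibroblast sums of these groups overlap.

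Fibroblast identity genes did not all keep level. Of 13 fibroblast markers, 1 was higher and 4 lower in untreated staggerer. Decorin (Dcn), a small collagen-binding proteoglycan, differed by -2.65 ± 0.14 (limma adjusted p = 5.49e-05), the growth factor receptor Pdgfra by -1.88 ± 0.20 (0.00109), the matrix protein Fbln1 by -0.98 ± 0.12 (0.00205) and lumican (Lum) by 0.92 ± 0.11 (0.00213). The collagen genes Col1a1 and Col1a2, not chosen by the same rule, differed by 0.15 and -0.17 and were not called. Endothelial markers were also part of the difference, with Emcn, a sialomucin of endothelial cells, at least 2.64-fold lower (limma adjusted p = 9.65e-05), Esam higher and Egfl7 not called. The part of other cell types in the macrophage differences was not tested.

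Other myeloid genes, from a list of 76 that holds none of the 32, had 25 members above background on at least 2 arrays and 36 on none. This list, like the set, was chosen with earlier results of these data known. In untreated staggerer 0 of the 25 were higher, 13 lower and 12 not called, against 6.68% higher and 6.27% lower over all genes. Their median log2 difference was -0.74, the value of a gene above background in neither untreated group. The filter bears on these figures too, because most of the lower genes, Fcgr4 and Folr2 among them, passed it through the wild type arrays alone. Lyz1, the near-identical neighbour of Lyz2, is also among the lower genes, so the list is not wholly separate from the set. Fcgr4, another Fc receptor for IgG, was at least 1.23-fold lower (limma adjusted p = 3e-04). The chemokine Ccl9 was lower by a log2 difference of -1.84 ± 0.15 (limma adjusted p = 0.000305), and Folr2, a folate receptor of tissue macrophages, at least 1.85-fold (0.000439). Mertk and Tlr2, which are also members of that list and were chosen here after their values were seen, differed by 0.05 and 0.09 and were not called. B cell markers and granulocyte or mast cell markers had 0 genes above background on 2 arrays, and T and NK cell markers had 2 of 12, both not called between the untreated genotypes.

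Genes that call macrophages in or keep them alive showed no common direction. Csf1, the growth factor that macrophages need and that fibroblasts make, read 9.78 and 9.69 in untreated wild type and 10.39 and 10.45 in untreated staggerer. It was thus higher in staggerer, where the macrophage genes were lower, by 0.69 ± 0.14 (limma adjusted p = 0.0185). Cx3cl1, a membrane-bound chemokine, was higher by 1.30 ± 0.17 (limma adjusted p = 0.00296), the monocyte chemokine Ccl12 lower (0.0111), with 1 of 2 untreated wild type arrays and no staggerer array above background, and Cxcl12, which holds leukocytes and stem cells in place, lower by a log2 difference of -0.75 ± 0.14 (0.0138). In all, 3 of 7 tested were higher and 2 lower. Of 8 macrophage activation genes tested, 3 were higher and 1 was lower, the inflammatory chemokine Ccl4, at 9.25 and 9.06 against 6.12 and 5.98 (log2 difference -3.10 ± 0.13, limma adjusted p = 2.3e-05), with 1 of 2 staggerer arrays above background. The 3 higher ones were Cxcl1 with 1.34, Il1rn with 1.03 and Cd80 with 0.95. Over all genes 6.68% were higher and 6.27% lower in this comparison. Which cells expressed the genes of these 2 lists was not tested.

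In untreated cultures lysosomal and lipid genes that fibroblasts share with macrophages did not follow the set. Of 20 tested, 1 was higher and 2 lower in untreated staggerer, with a median log2 difference of 0.14. The 2 lower were lipoprotein lipase (Lpl), at -1.87 ± 0.12 (limma adjusted p = 0.000148), and Gpnmb, a glycoprotein of lysosomes, at -0.72 ± 0.13 (0.0119). The higher one was the tetraspanin Cd9, at 0.57 ± 0.12 (limma adjusted p = 0.0216). Apolipoprotein E (Apoe) differed by -1.61 ± 0.46 and was not called (limma adjusted p = 0.0618). After doxorubicin in staggerer, 13 of these 20 genes were higher and 0 lower, against 31.8% higher and 33.3% lower over all genes. Their median log2 change there was 0.60, beside 0.63 for the macrophage genes, so the rise was not particular to the set.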

How the data were processed

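Total RNA of 8 samples was read on one-colour Illumina bead arrays. The deposited non-normalized table holds linear intensity values, which the authors gave with 25697 probes, 1124 control rows and no detection p. A second deposited table holds log2 values and equals quantile normalization of the log2 intensity (largest difference 5.1e-09); the scanner software is not given in the sources used here.

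Intensities were reprocessed with limma 3.58.1 in R 4.3.3. Background was corrected by nec on 1114 control rows, after 10 bright ones were left out, with an offset of 16, then quantile normalized and put on the log2 scale. A probe's detection p is the fraction of control rows that reach its signal. Probes with detection p under 0.01 on at least 2 arrays were tested, 12362 in all, with 1 value per gene, the brightest probe, giving 9340 genes of which 715 are unnamed probes. Symbols are those of the platform annotation, updated through RefSeq. All 8 arrays entered 1 linear model with a mean for each group (lmFit and eBayes, 4 residual and 3.44 prior degrees of freedom), with two-sided tests and Benjamini-Hochberg adjustment over all genes at 0.05. Adjusted p-values in the text are from this fit. The fit was tested on simulated data with known changes. The number of arrays limits the precision.

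The genes and all lists were chosen with earlier results of these data known. Every gene of the set with a probe is named; of each other list at most 4 tested genes are named, those with the smallest p between the untreated genotypes, and other probes where their log2 change differs by over 1. Col1a1, Col1a2, Vim, Mertk and Tlr2 are named outside this rule, after their values were seen. So are the second Coro1a probe in wild type and the second Lyz2 probe between the treated genotypes. Arrays with the same replicate number did not deviate together (correlations of -0.033 to 0.026 over 6 group pairs), so the numbers were not taken as pairs. Alternatives covered background correction, normalization, the authors' log2 table, the detection filter, the mean of probes, the variance model, the arrays in the fit, a replicate block and leaving out each array.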

Additional observations from a re-analysis of the deposited data

Results flagged for a closer look

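For 12 of the macrophage genes the change after doxorubicin differed between the genotypes, by a test of the difference itself (limma, adjusted p under the threshold). The difference, staggerer change minus wild type change on the log2 scale, was 0.82 for Adgre1, 1.03 for Mrc1, -0.68 for Clec4d, 1.61 for Trem2, 1.65 for Cd84, 1.04 for Cd52, 1.85 for Cd53, 1.59 for Fcer1g, 0.84 for Lcp1, 1.13 for C1qa, 2.04 for C1qc and 0.94 for Lyz2. For Mrc1, Cd52, Lcp1 and C1qa no staggerer array was above background, so their differences rest on the fall in wild type beside a staggerer signal at background. Adgre1, Trem2 and Cd84 were not above background in untreated staggerer, nor Clec4d in treated staggerer, so the sizes of these differences too are fitted against background. Clec4d lost its call under 15 of 17 alternatives and C1qa under 10 of 17. Lcp1 lost it under 8 of 17, Adgre1 under 4 of 17, Cd52 under 2 of 17 and Lyz2 under 1 of 18. The interaction was called for 59.2% of all genes and for 60% of the 20, so the share called was near the background.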

How the results depend on the processing

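In untreated cultures 13 of the 18 calls held under every alternative that could test them, and C1qa, Cd52, Cd84, Coro1a and Vav1 did not. With 1 array left out in turn, the number of macrophage genes called moved in every comparison, and so did the number over all genes. Such a fit leaves 1 array in a group, so its counts are not given. Over all genes the untreated count of 1210 became 2569 with no normalization between arrays. Requiring detection on all 8 arrays left 6 of the genes, so fewer were tested, and 5, 6, 6, 5 and 4 were called. The order is doxorubicin in wild type, doxorubicin in staggerer, the untreated genotypes, the treated genotypes and the interaction. Over all 6478 genes left, 4182, 4708, 1333, 5095 and 4426 were called in that order. After doxorubicin in wild type fewer were called without the second untreated wild type array or the first treated one, as over all genes. In staggerer 6 were called with median centring and 4 with no normalization between arrays, against 6124 and 5783 of all 9340 genes. Reversed values were Coro1a in staggerer, at -0.016 and -0.18 under these 2 settings, and Cd84 between the treated genotypes, at -0.19 with no normalization. For all of these the cause was not tested. With the replicate number as a block, 9, 13, 18, 15 and 11 genes were called, in the order above. Over all 9340 genes the counts were 5170, 5988, 1045, 6719 and 5418. Cd52 in wild type (limma adjusted p = 0.0598) and the interactions of Clec4d (0.0546) and C1qa (0.0544) lost their calls with the block. The replicate block is given for completeness, as the numbers do not pair the arrays. Chosen after seeing the data, a fit without the treated staggerer arrays called 12 in wild type and 18 between the untreated genotypes. Over all 9246 genes it called 5785 and 1598. Signals near background limit the dimmest genes, above all on the treated staggerer arrays.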

Other observations

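Outside the macrophage genes, the untreated genotypes differed in other genes of blood cells. The platelet chemokine Ppbp was higher in staggerer by 7.14 ± 0.16 on the log2 scale (limma adjusted p = 1.89e-06), and it was the only one of 4 tested erythroid and megakaryocyte markers that was called. Of 3 tested genes of antigen presentation by MHC class II, H2-DMa was higher by 1.23 ± 0.15 (limma adjusted p = 0.00225), H2-DMb1 by 0.99 ± 0.18 (0.0126), and H2-Eb1 was not above background in either group.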
